A study of Mus musculus with 6 samples.

Results

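The protein genes of the cytosolic ribosome were followed across 5 cell types of the embryonic mouse retina. Members were chosen by name: every gene of the matrix whose symbol is Rpl or Rps followed by a number and at most a short suffix, plus Rplp0, Rplp1, Rplp2 and Rpsa, with entries named as pseudogenes left out. The rule found 84 of 27998 genes. Together they held 66464879 of 243604794 unique molecular identifiers (UMIs, each standing for 1 counted RNA molecule), or 27.3% of all UMIs. Rpl10l, Rpl3l and Rpl39l, paralogs of members that other cells use, had 1, 5 and 19 UMIs in the whole series and entered no test. That left 81 tested members. Rpl6l is annotated as a processed pseudogene, so its reads and those of Rpl6 may have been split by the counting.

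The retinas came from mouse embryos at embryonic day 14 and were profiled with 10x Genomics 3′ v2 droplet chemistry, per the labels. The 6 libraries formed 3 groups of 2. The Bax het Atoh7 null group was heterozygous for Bax, an effector of programmed cell death, and lacked Atoh7, a transcription factor with a part in ganglion cell formation. The Bax null group was labelled with a Bax mutation only, and the Bax null Atoh7 null group with mutations of both genes. No group had both genes intact, and no label gave the alleles, the litter or the number of embryos pooled.

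A ribosome is built from a small subunit, which reads the mRNA, and a large subunit, which joins the amino acids. Each protein of the particle is made in step with the others, and excess copies are degraded. The mRNAs of most of these proteins begin with a run of pyrimidines (C and T), the 5′ terminal oligopyrimidine tract, through which the growth kinase mTORC1 sets how strongly they are translated. In the developing retina, dividing progenitors grow before each division, pass through a neurogenic state and leave the cell cycle as neurons, of which ganglion cells and cones are among the earliest.

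To show what the members have at their starts, 30 bases around the annotated RefSeq start (15 before and 15 from it, GRCm38.p6, 5′ to 3′ on the gene's strand) are printed for members at both ends of the ganglion cell ranking given below. Capitals mark the longest unbroken run of C and T.
The first 6 are from the members that fell most from progenitors to ganglion cells.
Rpl22l1 (chr3:28805493-28805522, plus strand): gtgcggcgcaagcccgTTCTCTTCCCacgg
Rpl12 (chr2:32961697-32961726, plus strand): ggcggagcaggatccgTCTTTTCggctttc
Rps2 (chr17:24720048-24720077, plus strand): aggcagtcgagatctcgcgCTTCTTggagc
Rplp0 (chr5:115559452-115559481, plus strand): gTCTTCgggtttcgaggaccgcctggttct
Rps19 (chr7:24884661-24884690, plus strand): ccgcacggtgagtgagggCTCTgggtcgcg
Rps12 (chr10:23787195-23787224, minus strand): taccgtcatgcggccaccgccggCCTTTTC
The next 5 are from the members that fell least.
Rpl27 (chr11:101442230-101442259, plus strand): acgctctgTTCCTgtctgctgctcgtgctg
Rpl7a (chr2:26910792-26910821, plus strand): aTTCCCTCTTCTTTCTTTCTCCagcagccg
Rpl19 (chr11:98026909-98026938, plus strand): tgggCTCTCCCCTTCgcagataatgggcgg
Rpl24 (chr16:55966260-55966289, plus strand): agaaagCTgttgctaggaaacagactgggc
Rpl10 (chrX:74270801-74270830, plus strand): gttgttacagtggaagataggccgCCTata
Of the 84 members, 63 had an entry. For genes with several entries the longest run over the entries was taken. By that rule a run of at least 8 pyrimidines, read on the gene's strand, lay in a window of 27 of these (42.9%), against 3760 of 27025 genes (13.9%). The median longest run was 7 in the members and 5 over all genes. Length of the run did not sort the printed windows into those that fell most and those that fell least: the longest run here, 21 bases, belongs to Rpl7a. Members with both an entry and a test were then sorted by the single window chosen for each, as in the printed ones. The 25 with a run of at least 8 had a median log2 difference between ganglion cells and progenitors of -0.76. For the 35 with a shorter run it was -0.73. These are matches of letters, not mapped tracts.

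The libraries differed in ways that bear on the members, so these values come first. Library totals ranged from 22463515 to 66594431 UMIs, and the 2 Bax null libraries were the deepest, with 5660.5 and 6804 median UMIs per cell against 1634 to 2632 in the other 4. The Bax null libraries also held the most member UMIs (30.8% in each, against 19.3% to 24.8%) and the most mitochondrial UMIs (3.80% and 3.90%, against 1.06% to 1.15%). Summed red blood cell markers (8 genes) reached 857 to 2035 CPM (UMIs scaled to a fixed total) in the cell types of the Bax null libraries and 3.63 to 268 CPM in those of the other groups. The 2 Bax null Atoh7 null libraries shared 2596 cell barcodes, against 126 to 223 in the other 14 pairs of libraries. Of these barcodes 89.4% carried the same cell type label in both libraries, compared with 40.3% over the other pairs. The comparisons of genotypes that use these libraries are therefore also given without the 5192 cells concerned. Elsewhere both libraries were kept whole and counted as separate replicates, except where stated. Atoh7 had no UMI in the 4 Atoh7 null libraries and 5.96 and 6.88 CPM in the Bax null libraries. Bax stood at 144 and 108 CPM in the heterozygous group, at 17.1 and 15 CPM in both Bax null libraries, and at 47.7 and 11 CPM in the libraries labelled Bax null Atoh7 null replicates 1 and 2. Where a 3′ tag lies relative to the deleted part of Bax is not in the labels.

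Cell types were those of the authors' cell table: 40882 retinal progenitor cells, 12857 neurogenic cells, 7357 ganglion cells, 3292 cones and 2662 cells with the horizontal label. All 11 ganglion cell markers were highest in ganglion cells, 8 of 9 cone markers in cones, 8 of 10 progenitor markers in progenitors and 7 of 10 neurogenic markers in neurogenic cells. The horizontal label held the highest level of all 6 horizontal and all 6 amacrine markers (Ptf1a is on both lists), so it is called horizontal-labelled. Summed endothelial and pericyte markers (6 genes) were 276 to 394 CPM in horizontal-labelled cells and 5.25 to 85.5 CPM in the other types. Most of the sum in horizontal-labelled cells was Cldn5 (273 CPM), followed by Pdgfrb (24.4 CPM). Pecam1 was at 1.55 CPM there, and Cdh5 and Rgs5 were at 0. Kdr went the other way, at 19.1 CPM in horizontal-labelled cells and 62.8 CPM in progenitors. The part of these markers in the results below was not tested. The authors' gene table marks 16 of the 84 members for ordering the cells, beside 2632 of all 27998 genes (9.40%). Whether the type labels were made from the marked genes is not stated, so the labels may not be independent of those members.

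The first question was how much of a cell's RNA these genes took up as progenitors became neurons. In every library the share was highest in progenitors, lower in neurogenic cells and lowest in ganglion cells. Progenitors held 26.97% and 26.4% of their UMIs in members in the Bax het Atoh7 null libraries, 34.4% and 34.2% in the Bax null libraries, and 27.3% and 21.8% in the Bax null Atoh7 null libraries. Neurogenic cells held 21.2% and 20.5%, then 29.2% and 30.2%, then 21.6% and 16.7%, in the same order. Ganglion cells held 16.9% and 16.1%, then 21.5% and 21.1%, then 16.5% and 12.8%. The libraries thus kept 1 order of types while their own levels differed by more than some types did: ganglion cells of Bax null had nearly the share that progenitors had in Bax null Atoh7 null replicate 2. Cones (13.9% to 22.8%) and horizontal-labelled cells (14.4% to 23.6%) lay between ganglion and neurogenic cells in every library. Cones and horizontal-labelled cells changed places between libraries. All 95% Wilson intervals of these shares were within 0.0768 percentage points of the value, which covers counting error only.

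**Figure D1:**
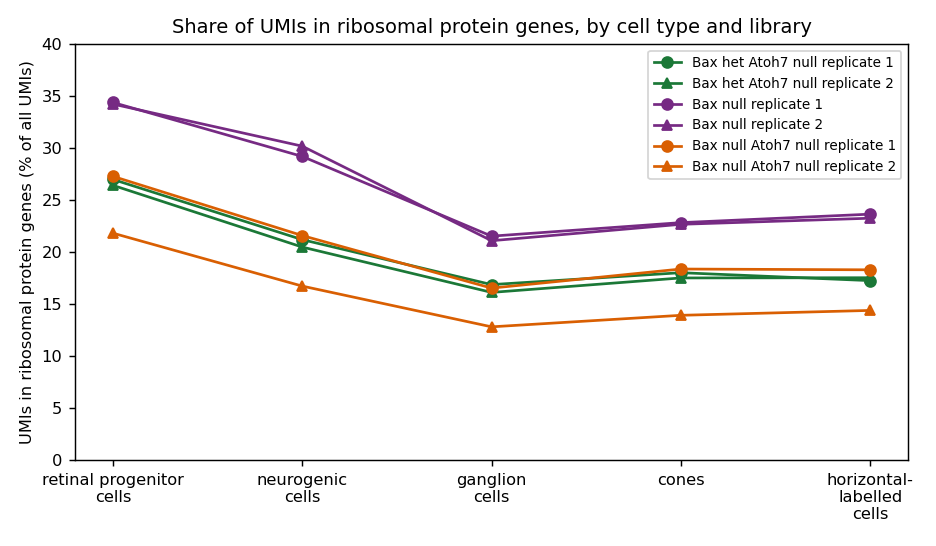
Share of all UMIs that fell in ribosomal protein genes (vertical axis, percent) in the 5 cell types, with 1 line per library, colour for genotype and symbol for replicate. Every line falls from progenitors (21.8% to 34.4%) to ganglion cells (12.8% to 21.5%). The Bax null lines are highest and that of Bax null Atoh7 null replicate 2 lowest in every type, while the other 3 lines lie close together and cross.

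Taken as a ratio within a library, the share in ganglion cells was 0.587 to 0.626 times that in progenitors, a mean log2 ratio of -0.71 ± 0.03 (SD, n = 6 libraries). For cones it was -0.60 ± 0.03, for horizontal-labelled cells -0.59 ± 0.04 and for neurogenic cells -0.31 ± 0.08, each with the share lower than in progenitors in 6 of 6 libraries. The members were chosen with earlier results of these data known, so the summed share carries no test. A share depends on the member UMIs and on the other UMIs, so both are given for the median cell. The median ganglion cell had 0.556 to 0.605 times the member UMIs of the median progenitor of its library and 1.07 to 1.2 times the other UMIs. Total UMIs per cell were close, at 0.925 to 1.07 times. The median cone had 0.364 to 0.462 times the member UMIs and 0.665 to 0.819 times the other UMIs of the median progenitor. In horizontal-labelled cells these ratios were 0.392 to 0.504 and 0.750 to 0.928, and in neurogenic cells 0.636 to 0.836 and 0.918 to 1.15. Why the shares differed was not tested. The difference in share was also present among cells of 2000 to 4000 UMIs alone, where the mean log2 ratio was -0.66 for ganglion cells and -0.57 for cones.

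Single cells varied within each type. In Bax null replicate 1 the share ran from 29.3% (10th percentile) to 39.7% (90th percentile) in progenitors, and from 14.9% to 29.8% in ganglion cells. Neurogenic cells, at 21.2% to 35.9%, overlapped both, and cones, at 17.6% to 26.7%, lay inside the range of ganglion cells. In Bax het Atoh7 null replicate 1 progenitors ran from 22.0% to 31.7% and ganglion cells from 12.2% to 21.4%. The authors' clusters showed the same grading as a description, since the clusters were made from the same cells. With each library's progenitors set to 1, the 75 progenitor clusters with enough cells (20 in each of at least 3 libraries) ranged from 0.856 to 1.16, and the 26 neurogenic clusters from 0.557 to 0.987. The 10 ganglion cell clusters ranged from 0.453 to 0.800, and the 5 cone clusters from 0.564 to 0.711. The neurogenic clusters thus covered almost the whole span between progenitors and ganglion cells.

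The next question was whether all members moved together. Counts were summed per library and cell type and compared within libraries with edgeR's quasi-likelihood test, with p-values adjusted by the Benjamini-Hochberg method over the 11315 genes tested; a gene is called when the adjusted p is under 0.05. The library was the replicate. The labels do not say whether the libraries of a group came from separate embryos, so these p-values measure the spread between libraries. For the Bax null Atoh7 null libraries, which share barcodes, independence is uncertain. Leaving out any 1 library kept 80 to 81 members called in neurogenic cells against progenitors, and 81 in each of the other types. From progenitors to ganglion cells all 81 tested members fell, with a median log2 fold change of -0.73 and quartiles of -0.84 and -0.62. Of all genes 40.2% were called lower and 38.0% higher in this comparison, and the median of all genes was -0.02. All 81 fell in cones (median -0.75, with 35.1% of all genes called lower and 33.4% higher) and in horizontal-labelled cells (median -0.68, 34.1% lower and 32.0% higher). In neurogenic cells 80 of 81 fell (median -0.34, 28.5%), and 1, Rps27l, was called higher (26.5% of all genes were). From neurogenic to ganglion cells 79 of 81 fell (median -0.41, with 36.9% of all genes lower and 34.9% higher). The exceptions were Rpl10 at -0.05 and Rpl6l at -0.11, which were not called. All 66 tested members without the authors' ordering mark were called lower in ganglion cells than in progenitors, as were all 15 with it, at medians of -0.75 and -0.67.

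**Figure D2:**
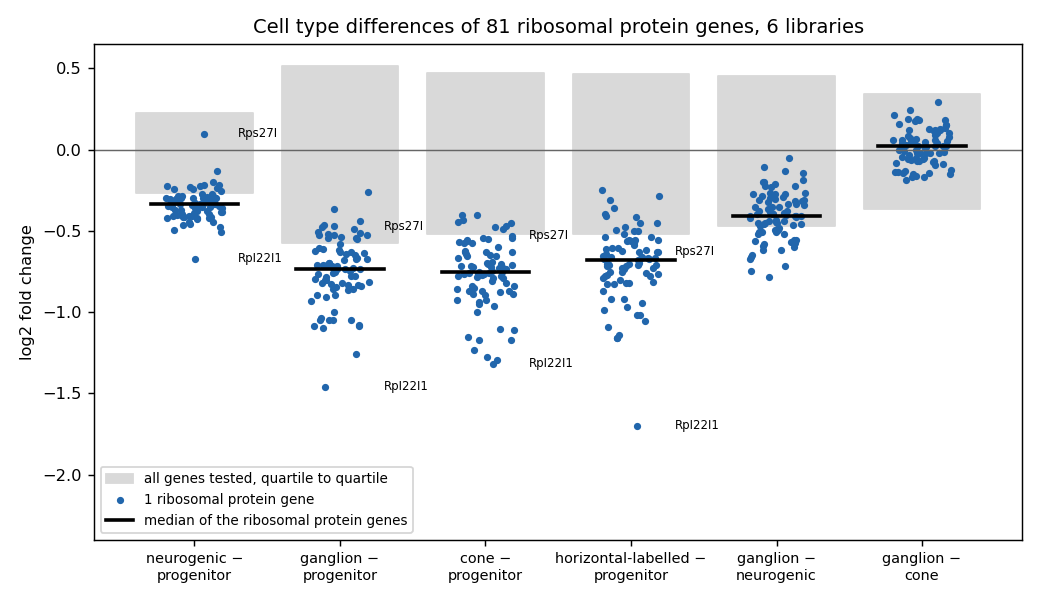
Log2 fold change (vertical axis) of 81 ribosomal protein genes in 6 comparisons of cell types over 6 libraries, with 1 point per gene, a bar at the median and a grey band from the lower to the upper quartile of all genes tested. In the comparisons with progenitors the medians sit at -0.34, -0.73, -0.75 and -0.68, while ganglion cells against cones centres on 0.02.

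Members of both subunits took part. The 49 large subunit members had a median of -0.71 and the 32 small subunit members -0.76 between ganglion cells and progenitors. Around this common fall the members differed by more than the libraries did. The SD among members was 0.21 on the log2 scale, and the median SD of 1 member's ratio between the 6 libraries was 0.04. The order of members was much the same in libraries that share no cells: the ratios in the 2 Bax null libraries and in the other 4 had a Pearson r of 0.91 and a Spearman rho of 0.89 across 81 members. Genes are not independent replicates, so this is a description. For horizontal-labelled cells r was 0.96, for cones 0.93 and for neurogenic cells 0.90.

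Rpl22l1, the paralog of Rpl22 and like it a large subunit protein that contacts RNA, fell most in all 4 comparisons with progenitors (gene at chr3:28805436-28807424, GRCm38). In progenitors its level, after scaling between sums, was 1328 and 1266 CPM in the Bax het Atoh7 null libraries, 2969 and 2789.6 CPM for Bax null, and 1154 and 779.7 CPM with both mutations. In ganglion cells, taken in the same order, it was 529 and 468, then 1034 and 959, then 415 and 286. Each library's ganglion cells lay far below its own progenitors, while Bax null ganglion cells lay above Bax null Atoh7 null replicate 2 progenitors. The log2 fold change was -1.46 ± 0.06 (SE, edgeR adjusted p = 1.37e-18), lower in 6 of 6 libraries. It was -1.70 ± 0.07 in horizontal-labelled cells, -1.32 ± 0.06 in cones and -0.67 ± 0.06 in neurogenic cells. Rpl22 fell by 0.74 in ganglion cells. The number of Rpl22l1 UMIs per Rpl22 UMI, set to 1 in each library's progenitors, was therefore lower: 0.700 to 0.858 in neurogenic cells, 0.593 to 0.650 in ganglion cells, 0.549 to 0.628 in cones and 0.415 to 0.530 in horizontal-labelled cells. All 4 types were below the progenitors of their own library in 6 of 6 libraries.

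At the other end was Rpl27, a large subunit protein (chr11:101442298-101445529). Its progenitor levels, with the groups in the same order, were 799 and 922, 1049 and 906, and 597 and 433 CPM. Ganglion cells had 686 and 807, 829.7 and 725, and 508 and 359.6 CPM. The fall was small but present in every library, at -0.26 ± 0.03 (SE, edgeR adjusted p = 3.33e-08). Rpl7a followed at -0.37, Rpl19 at -0.44, Rpl24 at -0.46 and Rpl10 at -0.47. Rpl27, Rpl7a and Rpl24 were among the members that fell least in horizontal-labelled cells as well, together with Rpl34 (-0.29) and Rpl37 (-0.40). In cones the members that fell least were Rpl24 (-0.40), Rps9 (-0.40), Rpl36 (-0.43), Rpl7l1 (-0.44) and Rpl19 (-0.45).

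**Figure D3:**
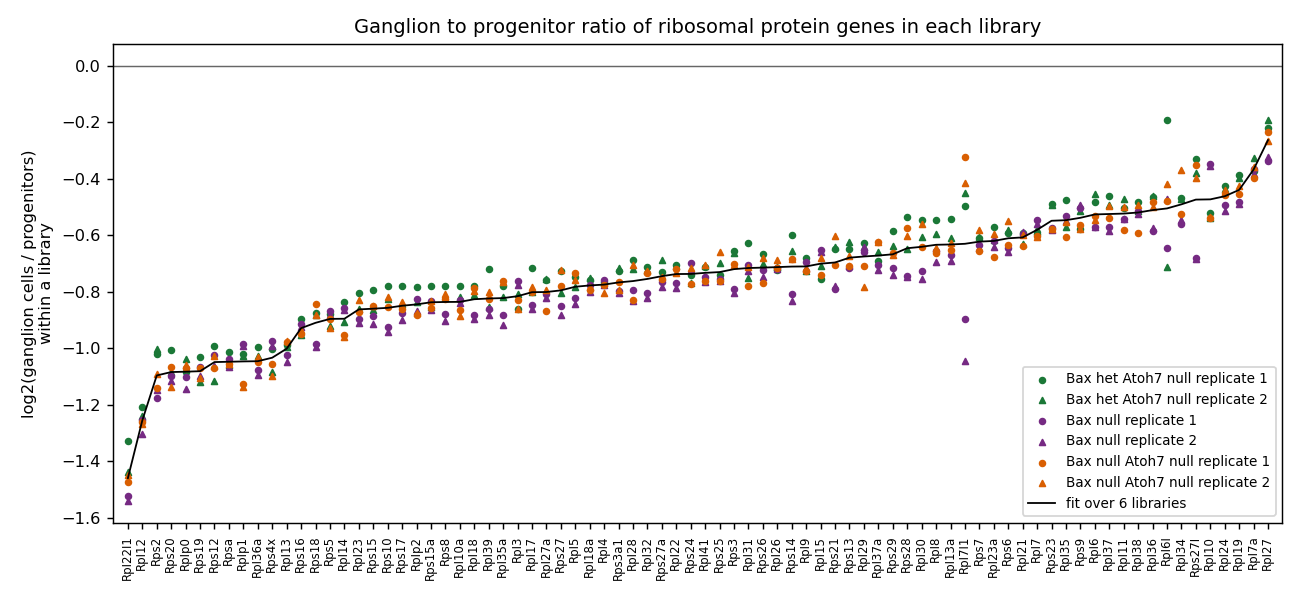
Log2 ratio of ganglion cells to progenitors within each library (vertical axis) for 80 of the 81 tested ribosomal protein genes, ordered by the fit over 6 libraries (line), with 1 point per library. All points lie below 0, from Rpl22l1 at -1.46 to Rpl27 at -0.26 in the fit, and the spread between libraries is widest for Rpl7l1 and Rpl6l.

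Ordered by place in the particle, the proteins of the P stalk, where elongation factors dock, fell further than most. Between ganglion cells and progenitors Rplp0, the stalk's anchor, was at -1.08 ± 0.04 (SE, edgeR adjusted p = 2.82e-19), Rplp1 at -1.05 ± 0.05 and Rplp2 at -0.84 ± 0.03, and Rpl12, at the stalk's base, at -1.25 ± 0.05 (edgeR adjusted p = 9.43e-19). The median of these 4 was -1.06, beside -0.73 for all tested members, and -1.17 in cones beside -0.75. All 4 were called lower in each comparison with progenitors, as were at least 80 of the 81 tested members and 28.5% to 40.2% of all genes. Rplp0 levels in progenitors ran from 2858 to 4227 CPM over the 6 libraries, and in ganglion cells from 1333 to 2058 CPM, without overlap.

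Of the small subunit head, where the mRNA and tRNAs are handled, 7 of 7 listed proteins were called lower in ganglion cells. So were all 81 tested members and 40.2% of all genes. The median of the 7 was -0.93, and the largest falls were those of Rps20 (-1.08), Rps19 (-1.08) and Rps12 (-1.05). Rps12 fell by 1.30 in cones, the next largest fall there after Rpl22l1. At the mRNA entry side Rps2 fell by 1.10 and Rps3 by 0.72. Rpsa, a small subunit protein also known as the laminin receptor precursor, fell by 1.05 ± 0.04 in ganglion cells and by 1.17 ± 0.04 in cones (edgeR adjusted p = 1.55e-20 and 3.64e-21). Proteins at the mRNA exit side were nearer the median: Rps14, Rps26 and Rps28 lay between -0.71 and -0.65.

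In the large subunit the 7 listed proteins around the tunnel exit, through which the new chain leaves, had a median of -0.71 in ganglion cells. The 3 listed around the peptidyl transferase centre, Rpl3, Rpl8 and Rpl10, had a median of -0.63. Rpl5 and Rpl11, which enter the particle with the 5S rRNA and also bind the p53 regulator Mdm2, fell by 0.78 and 0.52. Rps6, the classic phosphorylation target of the S6 kinases, fell by 0.61. Rps27a, made as a fusion with ubiquitin, fell by 0.74. The places were assigned after earlier results were known, and counts and medians are their whole description.

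Rps27l, a p53-responsive paralog of Rps27 in the small subunit (chr9:66946086-66949516), was the 1 member that did not fall on entry into the neurogenic state. Its ratio of neurogenic cells to progenitors was 0.10 ± 0.04 on the log2 scale (SE, edgeR adjusted p = 0.0478). Only 4 of 6 libraries were higher, both Bax null libraries were not, and the call was lost in several alternatives, with edgeR adjusted p of 0.106 without the cells of shared barcodes and 0.766 in the Bax null libraries alone. It fell in ganglion cells by 0.47 ± 0.04. Rps27 fell at both steps, by 0.39 and 0.79. Rps27l UMIs per Rps27 UMI, relative to the same library's progenitors, were 1.2 to 1.57 in neurogenic cells and 1.13 to 1.35 in ganglion cells, above 1 in 6 of 6 libraries, and 0.926 to 1.08 in horizontal-labelled cells.

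Ganglion cells and cones, 2 early neurons, were close to each other. The summed share in ganglion cells was 0.900 to 0.943 times that in cones, lower in 6 of 6 libraries (mean log2 ratio -0.11 ± 0.02, SD). Single members, after scaling, differed in both directions. In this comparison 20 members were called higher in ganglion cells (27.0% of all genes) and 13 lower (24.7%), with a member median of 0.02, so members were not called more often than genes in general. Rpl35 had the largest difference, 0.29 ± 0.03 (SE, edgeR adjusted p = 8.82e-09), higher in ganglion cells in 6 of 6 libraries. Rps12 at 0.25 and Rpl27 at 0.21 followed, and Rpl22 at -0.17 and Rps27 at -0.17 were the lowest of those called. The balance depended on scaling: with library totals and no TMM the split was 3 higher and 52 lower, where the median of all genes moved to -0.13. It was 37 and 11 in the Bax null libraries alone, 14 and 20 in the 4 Atoh7 null libraries, and 29 and 12 without doublets.

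Genes that work with the ribosome were described from lists, by counts and medians, to be read against all genes tested: 40.2% of these were called lower and 38.0% higher in ganglion cells, and 28.5% lower and 26.5% higher in neurogenic cells, both against progenitors. Of 39 tested ribosome biogenesis genes 29 were called lower and 3 higher in ganglion cells than in progenitors, with a median of -0.48. Gar1 and Dkc1, of the particle that modifies rRNA, were lowest at -1.54 ± 0.07 and -1.48 ± 0.06 (SE, edgeR adjusted p = 4.57e-18 and 9.36e-19). Rrn3, which recruits RNA polymerase I to rRNA genes, was highest at 1.52 ± 0.07, higher in 6 of 6 libraries. At the neurogenic step 11 of the 39 were called lower, a share like that of all genes (28.5%), and 6 higher, with a median of -0.07. Rrs1, an assembly factor of the large subunit, was higher there by 0.86 ± 0.07, and Dkc1 lower by 0.44 ± 0.06.

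Another list held translation factors and other genes classed with the same 5′ tract, and the starts of its genes were not examined. Of its 21 tested genes 19 were called lower and 1 higher in ganglion cells (median -0.52). In neurogenic cells 17 were lower and 2 higher (median -0.19). Eef1d, a subunit of the elongation factor exchange complex, fell by 2.04 ± 0.10 in ganglion cells and by 0.85 ± 0.09 in neurogenic cells. Pabpc1, the cytoplasmic poly(A)-binding protein, fell by 1.26 ± 0.06 in ganglion cells. Eif4a1, an initiation helicase, went the other way, at 0.79 ± 0.05 and 0.51 ± 0.05. Of 9 tested genes of the Myc network 6 were called higher and 1 lower in ganglion cells, where 38.0% of all genes were higher and 40.2% lower. Mxd4 and Mxd1, antagonists of Myc, were higher by 1.59 ± 0.05 and 1.13 ± 0.15, and Mxd3 was lower by 3.14 ± 0.15. Mycl was higher in neurogenic cells by 0.88 ± 0.08.

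The proteins of the other ribosome of the cell, that of mitochondria, are also encoded in the nucleus. Of 76 tested, 41 were called lower and 13 higher in ganglion cells (40.2% and 38.0% of all genes were), with a median of -0.18. In neurogenic cells 15 were lower and 18 higher, no larger a share than of all genes (28.5% and 26.5%), with a median of -0.01. Mrpl34 (0.88 ± 0.05) and Mrpl20 (0.62 ± 0.05) were highest and Mrps27 (-0.83 ± 0.12) lowest in ganglion cells. Among 13 genes that signal to or from the ribosome, 7 were lower and 4 higher in ganglion cells, beside 40.2% and 38.0% of all genes. Eif4ebp1, an mTORC1 target that restrains initiation, was lower by 1.01 ± 0.19, and Mdm2 higher by 0.56 ± 0.08.

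Between genotypes many members differed within a cell type. The size of the difference was related to coding length, most clearly where the Bax null Atoh7 null group was compared. These comparisons were fitted over 6 libraries, 2 per group, and any 2 of them share a group. Against Bax null progenitors, 68 of 81 members were lower in those that also lacked Atoh7 (27.1% of 13396 genes were called lower and 26.8% higher), with a median of -1.13 and none called higher. The same count, 68, was lower in progenitors of the Bax het Atoh7 null group (26.5% of genes were lower and 26.6% higher, median -0.85). In ganglion cells 71 were lower and 2 higher in the first comparison (26.5% and 26.2% of 10586 genes, median -1.16), and 71 lower and none higher in the other (25.0% of genes were lower and 25.0% higher, median -0.83). When the cells of shared barcodes were left out, the first comparison called 66 members in progenitors and 70 in ganglion cells. With library totals and no TMM the median of all genes moved by 0.64 and 0.54 in progenitors, and the splits became 46 lower and 13 higher, and 37 lower and 4 higher. For Bax het Atoh7 null against Bax null in progenitors, leaving out Bax null replicate 1 or 2 gave 45 or 44 calls, and leaving out replicate 1 or 2 of the other group 45 or 42. Mitochondrial and red blood cell RNA and depth per cell also separated the Bax null libraries, as given above, so genotype and library cannot be told apart here.

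Rps29, among the smallest proteins of the head, stood at 12817 and 15138 CPM in the progenitors of the Bax null libraries, 2301 and 2339 CPM in those of Bax het Atoh7 null, and 886 and 475 CPM where both genes were mutated. The 3 groups did not overlap. Its log2 fold change for Bax null Atoh7 null against Bax null was -4.36 ± 0.29 (SE, edgeR adjusted p = 5.07e-06). Rps28 (-4.18) and Rpl27a (-3.65) came next. Rplp0 went the other way in value: 3575 and 3843 CPM with both mutations against 2687 and 2794 CPM with the Bax mutation only, a log2 difference of 0.44 ± 0.17 that was not called (edgeR adjusted p = 0.0562). In ganglion cells the same difference was 0.46 ± 0.16 and was called (edgeR adjusted p = 0.0311). Rps2 (0.14) and Rpl3 (0.05) in progenitors were not called either.

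Coding length separated these members. Of the 27 with under 400 coding bases all were called lower for Bax null Atoh7 null against Bax null in progenitors, with a median of -2.01. Of the 53 longer members 40 were called lower, with a median of -0.78. Spearman's rho between coding length and the log2 difference was 0.74 across 80 members, and Pearson's r 0.67. Rpl27a (444 coding bases) and Rps6 (747) stood apart from this relation. Rps6 was at 5856 and 5846 CPM in Bax null progenitors, 989 and 1200.0 CPM in Bax het Atoh7 null progenitors and 1318 and 913 CPM where both genes were mutated. For Bax het Atoh7 null against Bax null the relation was weaker, with a rho of 0.35 in progenitors and 0.32 in ganglion cells. In progenitors 23 of the 27 short and 44 of the 53 longer members were called there, at medians of -1.08 and -0.68. Between cell types the values were different: for ganglion cells against progenitors the medians of short and long members were -0.73 and -0.75, and rho was -0.06. Both Rpl27a and Rps6 carry the authors' ordering mark.

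**Figure D4:**
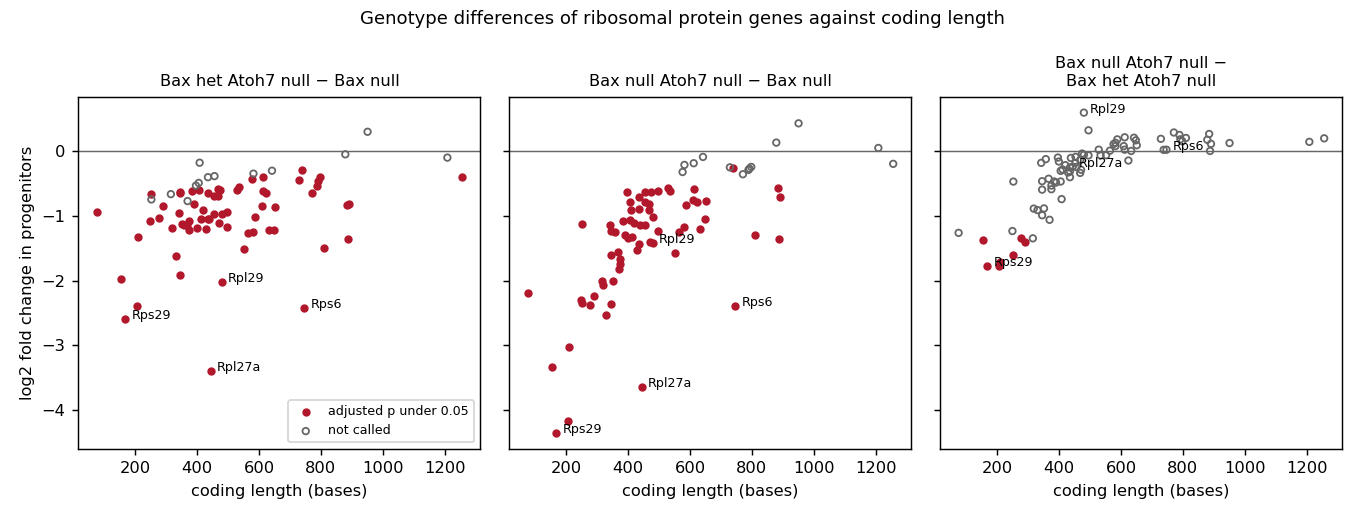
Log2 fold change between genotypes in progenitors (vertical axis) against coding length in bases (horizontal axis) for 80 ribosomal protein genes, filled where the adjusted p was under 0.05. Rps29, a short member, lies low in all 3 panels (-2.59, -4.36 and -1.77). Other short members, such as Rpl36 (-0.66) and Rps27 (-0.74), lie above the members' median of -0.85 for Bax het Atoh7 null against Bax null. Rpl27a and Rps6 lie low in the 2 comparisons with Bax null and near 0 in the comparison of the Atoh7 null groups (-0.24 and 0.03).

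The labels of the 2 Atoh7 null groups differ in Bax. With Bax null Atoh7 null set against Bax het Atoh7 null, 7 members were lower in progenitors (1.95% of genes were) and none higher (0.0597% of genes were): Rps28 (-1.78), Rps29 (-1.77), Rpl38 (-1.71), Rps27 (-1.60), Rpl37 (-1.40), Rpl39 (-1.37) and Rpl37a (-1.35). All 7 have under 400 coding bases, and rho with coding length was 0.90 across 80 members. In ganglion cells 15 were lower (2.1% of genes) and none higher (0.246% of genes), all but Rpl27 with under 400 coding bases. This comparison rests on single libraries. The members' median absolute log2 difference between the replicates was 0.51 for Bax null Atoh7 null, 0.09 for Bax het Atoh7 null and 0.04 for Bax null, while over 4746 genes it was 0.13, 0.08 and 0.05. Rps28 in progenitors was 483 and 218 CPM in Bax null Atoh7 null replicates 1 and 2, and 1164 and 1237 CPM in the Bax het Atoh7 null libraries. Without Bax null Atoh7 null replicate 1 the count in progenitors was 46, without replicate 2 it was 15 lower and 7 higher, and without either Bax null library it was 2. Without either Bax het Atoh7 null library edgeR called 0, and 17 members had an unadjusted p under 0.05 in each case. In ganglion cells it was 46 without Bax null Atoh7 null replicate 1, and 8 and 5 without replicates 1 and 2 of the Bax het Atoh7 null group. When the cells of shared barcodes were left out, it was 1 in progenitors and 6 in ganglion cells.

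Last, the ratio of ganglion cells to progenitors within a library was compared between genotypes, which cancels differences common to a library. For Bax null Atoh7 null against Bax null 6 members had a higher ratio and 4 a lower one (8.15% and 7.53% of 13670 genes), so members were called no more often than genes in general. For Bax het Atoh7 null against Bax null it was 13 higher and 1 lower (7.42% and 7.81%). Between the 2 Atoh7 null groups no member was called with edgeR or with DESeq2, and 9 had an unadjusted edgeR p under 0.05. Rpl7l1, a paralog of Rpl7 linked to ribosome assembly (chr17:46773907-46782672), had the largest difference. Its log2 ratio was -0.50 and -0.45 in the Bax het Atoh7 null libraries, -0.90 and -1.05 in the Bax null libraries, and -0.32 and -0.42 in the libraries with both mutations, so that the Bax null libraries lay apart from the other 4. The differences from Bax null were 0.49 ± 0.10 and 0.59 ± 0.09 (SE, edgeR adjusted p = 0.000141 and 3.23e-06). Both calls were lost when counts were thinned to the smallest total, at 0.45 and 0.42 (edgeR adjusted p = 0.134 and 0.156). Rps27l showed the same arrangement, with -0.33 and -0.38, -0.68 and -0.68, and -0.35 and -0.40, and differences of 0.32 ± 0.05 and 0.29 ± 0.06 (edgeR adjusted p = 2.37e-05 and 0.000114). Rpl10, beside the peptidyl transferase centre, was the reverse: -0.52 and -0.54, -0.35 and -0.36, and -0.54 and -0.53, with differences of -0.19 ± 0.04 and -0.20 ± 0.04 (edgeR adjusted p = 0.000108 and 3.34e-05). The split of calls depended on scaling. For Bax null Atoh7 null against Bax null it was 2 higher and 9 lower with RLE size factors, 2 and 12 when TMM was computed without members and mitochondrial genes, 2 and 9 with library totals, and 2 and 8 without doublets. For Bax het Atoh7 null against Bax null it was 4 higher and 3 lower both with library totals and without doublets. Without Bax null replicate 1 or 2 the total of calls was 3 or 4 for Bax null Atoh7 null and 5 or 4 for Bax het Atoh7 null, and without Bax het Atoh7 null replicate 1 or 2 it was 6 or 9 for the latter. It was 6 in each of these comparisons when the cells of shared barcodes were left out. With library totals the directions of Rpl7l1, Rps27l and Rpl10 were kept. Red blood cell markers were higher in the Bax null libraries, and their part in these differences was not tested.

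**Figure D5:**
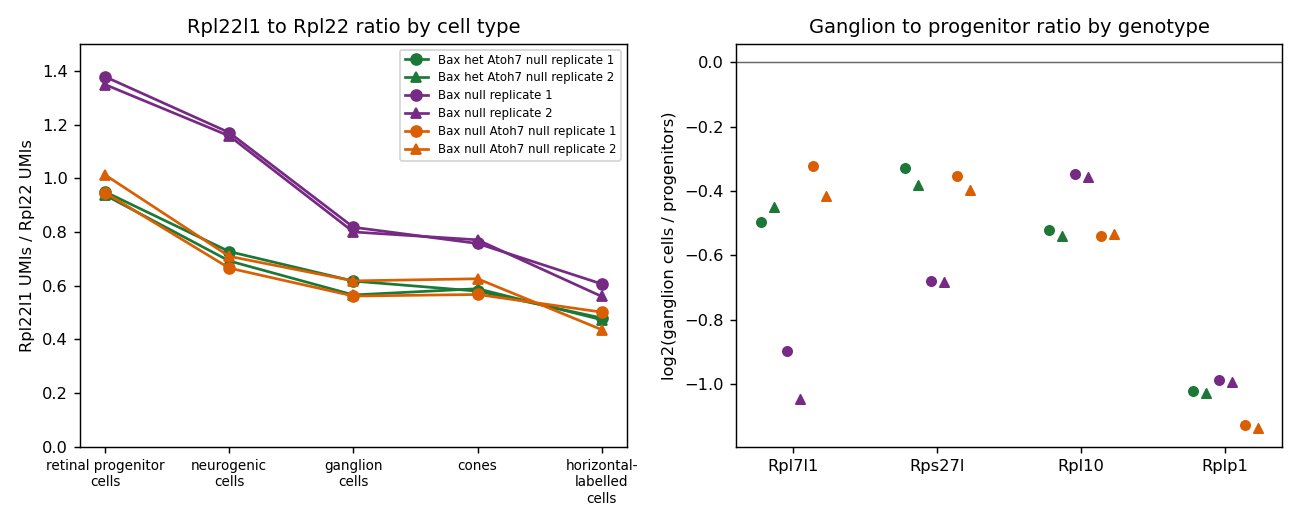
Left, UMIs of Rpl22l1 per UMI of Rpl22 in each cell type (1 line per library). Right, log2 ratio of ganglion cells to progenitors for Rpl7l1, Rps27l, Rpl10 and Rplp1 (1 point per library, colours and symbols as at left). The Rpl22l1 lines fall from progenitors to horizontal-labelled cells in every library, and the Bax null points lie lowest for Rpl7l1 (-0.90 and -1.05) and Rps27l (-0.68 in both) and highest for Rpl10 (-0.35 and -0.36).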

How the data were processed

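The authors' matrix, as deposited, contains unnormalized UMI counts, with Cell Ranger 1.2.1 and mm10 named in the submitters' processing notes; how cells were filtered is not given in the sources used here. The deposited cell and gene tables, made by the authors, gave cell type, cluster, total count and ordering marks. Of 93128 cells, 67050 belonged to the 6 libraries; 26078 cells of 2 other libraries were not used here. The members and gene lists were chosen with earlier results of these data known.

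Counts were added up over the cells of a type in a library. Low genes were removed by filterByExpr, sums were scaled with TMM factors (trimmed mean of M), and the quasi-likelihood test of edgeR 4.0.16 was run in R 4.3.3, two-sided. Cell types were compared in 1 fit of 30 sums with library and type as terms; genotypes in fits within a cell type with group as the term; ratio differences with an interaction term. An SE is the absolute log2 fold change over the root of the test's F. Levels are TMM-scaled CPM of the fit they belong to. On simulated counts for 10824 genes the cell type test recovered 100 of 100 genes changed by 1 and 100 of 100 changed by 0.5 on the log2 scale, with 10 false among 210 calls. The simulation changed equal numbers of genes up and down, in ganglion cells only, with the same spread for every gene. It did not cover a fall of a whole class of abundant genes, so it does not check the scaling in that setting.

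With full statistics the text names, by a rule, the 5 highest and 5 lowest members of a cell type comparison, paralogs, the stalk proteins and Rpsa, the 3 highest and 3 lowest of a genotype comparison, the 5 largest ratio differences, and the 2 highest and 2 lowest genes of each list in ganglion and neurogenic cells; other members are named by value; 1 member is left out of the ranked plot and the list of ratio differences and is not reported by name here.

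Alternatives were RLE size factors, TMM without members and mitochondrial genes, library totals, DESeq2 1.42.0, no filter, cells under 1000 UMIs left out, thinning, other blocks, subsets of libraries, and each library left out. Doublet-like cells, those in the top 8% of Scrublet scores in each library (scanpy 1.11.5), were kept, and 5364 of them were left out as an alternative. Leaving out shared barcodes and using only cells of 2000 to 4000 UMIs were chosen after seeing the data. Gene positions and coding lengths come from GENCODE M21 (GRCm38), start windows from RefSeq (GRCm38.p6). The matrix also held 16 Rpl and Rps entries named as pseudogenes with 0.0468% of all UMIs; how reads shared by near-identical copies were counted is not given.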

Additional observations from a re-analysis of the deposited data

Results flagged for a closer look

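The ratio of ganglion cells to progenitors differed between genotypes in 10 members for Bax null Atoh7 null against Bax null and in 14 for Bax het Atoh7 null against Bax null, by the interaction term of the edgeR quasi-likelihood fit with Benjamini-Hochberg adjustment. Of all 13670 genes 15.7% and 15.2% differed in these comparisons, so the members' counts (of 81), both directions together, are near the background. By direction the counts for Bax het Atoh7 null against Bax null were uneven. There 13 members were higher and 1 lower, beside 7.42% and 7.81% of genes, a split that depended on scaling as given above. Both comparisons share the Bax null libraries. In the first, the difference in the log2 ratio was -0.20 for Rpl10, -0.16 for Rplp1, -0.11 for Rpl14 and -0.11 for Rps4x. It was 0.11 for Rps18, 0.12 for Rps14, 0.12 for Rpl35a, 0.14 for Rps28, 0.29 for Rps27l and 0.59 for Rpl7l1. Among those of the other comparison, the difference was -0.19 for Rpl10. It was 0.0947 for Rpl13a, 0.10 for Rps18, 0.11 for Rps29, 0.12 for Rps10, 0.13 for Rps3 and 0.13 for Rps21. It was 0.14 for Rps2, 0.14 for Rps28, 0.15 for Rpl30, 0.18 for Rps14, 0.32 for Rps27l and 0.49 for Rpl7l1. Most of these differences were small beside the fall of the members itself, with Rpl7l1 and Rps27l the exceptions in both comparisons. Rpl7l1 lost its call after thinning to the smallest total, at 0.42 (edgeR adjusted p = 0.156) and 0.45 (edgeR adjusted p = 0.134).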

How the results depend on the processing

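Limits are the 2 libraries per genotype, the single stage, type labels made from the same cells, and depth, since thinning to the smallest total ended the calls of the Rpl7l1 ratio differences and reversed Rrn3 and Mga; genotype and library cannot be told apart. How the protein follows these counts was not measured. Counts and shares stayed within their limit (1.5 times for counts, 1 SD between libraries for shares) in 285 alternatives and moved in 51. Among genes named with full statistics the direction and side of the threshold were the same in 2669 cases, the call was lost in 135 and gained in 38, and the direction reversed in 17. In each comparison with progenitors, leaving out any 1 library kept 80 to 81 members called in neurogenic cells and 81 in ganglion cells, cones and horizontal-labelled cells; the count was 79 to 80 for ganglion against neurogenic cells and 28 to 32 for ganglion cells against cones. With the library term, the replicate block of these comparisons, left out, 4, 46, 41 and 39 members were called in neurogenic, ganglion, cone and horizontal-labelled cells against progenitors, 14 for ganglion against neurogenic cells, and 0 for ganglion cells against cones, where 0 members also had an unadjusted edgeR p under 0.05. With library totals the count for ganglion cells against cones was 55, and for Bax het Atoh7 null against Bax null 41 in progenitors and 44 in ganglion cells.

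Replicate numbers did not pair the libraries: the correlations of same-numbered deviations between groups were -0.05, 0.18 and -0.18 over 4746 genes. With the number as a replicate block, 15 members were called between the Atoh7 null groups in progenitors and 20 in ganglion cells. In progenitors this count was 2 with no filter, 2 with only the 4 libraries compared and 1 without the cells of shared barcodes, which left 6 in ganglion cells. Leaving out 1 library gave 0 to 46 in progenitors and 5 to 46 in ganglion cells, for Bax null Atoh7 null against Bax null 58 to 77 and 64 to 79, and for Bax het Atoh7 null against Bax null 42 to 77 and 50 to 78. For the ratio differences it gave 3 to 13 for Bax null Atoh7 null, where DESeq2 called 4 and the data without shared barcodes 6, and 4 to 21 for Bax het Atoh7 null. The latter count was 9 with RLE size factors, 9 with TMM computed without members and mitochondrial genes, 7 with library totals, 3 with DESeq2, 5 with no filter, 7 without doublets and 6 without shared barcodes. The causes of these changes were not tested.

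The log2 share ratio to progenitors without doublets was -0.76 in ganglion cells, -0.66 in cones and -0.66 in horizontal-labelled cells. As a median over cells it was -0.66 in cones and -0.62 in horizontal-labelled cells, and -0.072 for ganglion cells against cones. Within cells of 2000 to 4000 UMIs it was -0.66 in ganglion cells and -0.57 in cones, and -0.29 for ganglion against neurogenic cells. Leaving out 1 library gave -0.72 to -0.70 in ganglion cells, -0.60 to -0.59 in cones, -0.59 to -0.57 in horizontal-labelled and -0.33 to -0.29 in neurogenic cells, -0.41 to -0.38 for ganglion against neurogenic cells and -0.12 to -0.10 for ganglion cells against cones.

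Reversals were mostly of differences near 0. Against progenitors, Rps27l in neurogenic cells was -0.012 in the Bax null libraries alone, Rrn3 in neurogenic cells was -0.11 after thinning, and Mga in ganglion cells 0.064 after thinning. Hnrnpa1 in ganglion cells, -0.02 in the fit reported, was 0.028 with library totals, 0.00996 with DESeq2, 0.012 after thinning, -0.049 to 0.0017 over fits without 1 library (highest without Bax null Atoh7 null replicate 2), 0.041 without the library term and 0.083 in the Bax null libraries alone. Rpl10 was 0.00231 for ganglion against neurogenic cells in the Bax null libraries alone, and Rpl7l1 was 0.038 for ganglion cells against cones in the 4 Atoh7 null libraries. Between Bax het Atoh7 null and Bax null progenitors, Rpl3 was 0.44 and Rps2 0.49 with library totals, and Rps2 was -0.25 to 0.14 over fits without 1 library. For Bax null Atoh7 null against Bax null, Rps2 without 1 library was -0.15 to 0.38 in progenitors and -0.12 to 0.36 in ganglion cells, lowest without Bax null Atoh7 null replicate 1. For Bax het Atoh7 null against Bax null in ganglion cells it was -0.11 to 0.26, lowest without Bax het Atoh7 null replicate 1.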
